A study of Homo sapiens with 12 samples.

Results

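A set of effector genes of the integrated stress response was followed in WM-266-4 cells, a human melanoma cell line, that had been given back TYRO3 in different forms. The 9 genes were JDP2, TRIB3, CHAC1, SESN2, DDIT4, EIF4EBP1, GDF15, STC2 and VLDLR, of 35579 genes with a matched transcript and of 15098 that passed the filter on low counts. All 9 passed this filter. The genes were chosen by name as known targets of the pathway, but the choice was made with their differences from control in these same libraries already known. The differences from control are therefore given as a description. The calls and p-values printed with them are part of this description and are not tests of these genes.

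All 12 libraries came from cells with a stable, lentiviral shRNA knock-down of TYRO3, so the knock-down was shared by every group. The cells were transfected with the plasmid pEZY-myc-his that encoded GFP (the control), wild-type TYRO3 (WT), TYRO3 with the substitution I449A (ΔGS) or TYRO3 with P408A, L409P and G419P (ΔADAM), and were then starved of serum. TYRO3 is a receptor tyrosine kinase whose ectodomain can be shed by ADAM proteases and whose remaining stub can be cut in the membrane by gamma-secretase, which frees an intracellular domain. ΔADAM resists the first cut and ΔGS, which can still be shed, the second. The study describes both variants as giving less of the free intracellular domain than WT, not as giving none. The control plasmid is given as GFP in the sample labels and as an empty plasmid in the description of the study. Each of 3 experiments gave 1 library of each group, which makes 12 libraries, and p-values measure the spread between these libraries.

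The integrated stress response starts when kinases that sense unfolded protein, amino acid shortage, heme shortage or double-stranded RNA phosphorylate the translation factor eIF2α. Most protein synthesis then slows while the mRNA of the transcription factor ATF4 is translated more, and ATF4 with partners such as CEBPG and DDIT3 switches on genes for amino acid supply, redox balance and growth arrest. ATF4 binds a composite C/EBP-ATF element whose core has the letters TGATGNAA. The 9 effectors act downstream of this step, as feedback regulators of transcription (JDP2, TRIB3), as an enzyme (CHAC1), as brakes on growth and translation (SESN2, DDIT4, EIF4EBP1), as secreted proteins (GDF15, STC2) and as a lipoprotein receptor (VLDLR).

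Levels are given as CPM (read counts scaled to a common library size), from the counts kallisto estimated, summed per gene and scaled by the TMM method. The totals per library ranged from 4008293 to 38184838, and the lowest, the GFP library of experiment 1, lay far below the next at 18365999. TYRO3 had 53.1, 47.3 and 56.5 CPM in the GFP libraries of experiments 1, 2 and 3 and 3062, 1789.7 and 1369 CPM with WT, 3692, 1436 and 1647 CPM with ΔGS and 3282, 1214 and 1179.9 CPM with ΔADAM. It was therefore higher than in GFP in every TYRO3 library, as the labels say. The melanocyte genes PMEL (744 to 1353 CPM) and SOX10 (346 to 604 CPM) were high in all 12 libraries. The pigment genes TYR (at most 17.5 CPM) and TYRP1 (at most 3.24 CPM) and the melanocyte gene MLANA (at most 27.5 CPM) were low. The pigment gene DCT was not low, with 74.5 to 444 CPM, and MITF had 94.9 to 336 CPM and S100B 27.6 to 71.7 CPM. The keratinocyte genes KRT5 and KRT1 were at 0 in all 12 libraries and the leukocyte gene CD3E in 11 of them. In bulk RNA, more responding cells and more RNA per responding cell cannot be told apart.

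In the GFP libraries the effectors spanned a wide range of levels, compared here per transcript length as TPM, a share of all transcripts. EIF4EBP1 was the highest at 365 ± 58.6 TPM (SD, n = 3), followed by DDIT4 at 104 ± 51.2 TPM and TRIB3 at 44.1 ± 14.9 TPM, and the ranges of these 3 genes did not overlap. GDF15 followed at 29.6 ± 14.2 TPM, VLDLR at 16.2 ± 1.26 TPM, CHAC1 at 6.66 ± 2.02 TPM, STC2 at 6.45 ± 1.44 TPM, JDP2 at 3.65 ± 1.93 TPM and SESN2 at 2.50 ± 0.925 TPM. In this lower part of the order only VLDLR and CHAC1 were neighbours with separate ranges. With ΔADAM the order changed, with CHAC1 at 59.2 ± 55.4 TPM, STC2 at 54.6 ± 28.6 TPM and JDP2 at 22.9 ± 14.9 TPM, all 3 with means above VLDLR at 19.5 ± 5.84 TPM, although the range of VLDLR overlapped each of theirs.

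JDP2 and CHAC1 were the effectors with the ATF4 core letters in their promoter windows, and the 30 bases around each match are shown for that reason. They were read from the RefSeq promoter sequences of GRCh38.p14, on the plus strand, with the match in capitals, at chr14:75427992-75428021 for JDP2 and chr15:40953251-40953280 for CHAC1.
JDP2: tatatagccggggcTGATGCAAcccgtccc
CHAC1: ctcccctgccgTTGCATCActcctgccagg
The match before JDP2 lies on the plus strand and starts 16 bases before a RefSeq start at position 75428022. This window lies inside the bounds of JDP2 in GENCODE 29, where the gene starts at 75427716. The match near CHAC1 lies on the minus strand, 209 bases before the RefSeq start at position 40953471. It lies inside the bounds of CHAC1 in GENCODE 29, where the gene starts at 40952962. The 8 effectors with an entry in the table have 12 windows of 250 bases before a start, since JDP2 and TRIB3 have 3 each, and 2 of these 12 held the core on either strand, as did 1104 of all 35116 windows (3.14%). The letters TGACGTCA of the cAMP response element were in 0 of the 12 windows and in 1.65% of all windows. EIF4EBP1 had no entry. A match describes letters in this window only and says nothing of binding.

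JDP2 (ENSG00000140044, chromosome 14 from 75427716 to 75474111, plus strand, GRCh38), a bZIP protein that represses transcription as a partner of JUN and ATF proteins, was among the lowest effectors in the control and separated all TYRO3 libraries from it. It had 2.63, 2.80 and 4.29 CPM in GFP and 19.8, 6.74 and 17.6 CPM with WT in experiments 1, 2 and 3. It had 13.5, 11.2 and 38.0 CPM with ΔGS and 13.1, 9.27 and 33.9 CPM with ΔADAM. Each of the 9 TYRO3 libraries lay above each of the 3 GFP libraries, and the lowest TYRO3 library was WT of experiment 2. The GFP library of experiment 1 rests on a JDP2 estimate of 9.59 counts. The fitted log2 fold change over GFP was 2.22 (standard error 0.67) with WT, 2.67 (standard error 0.66) with ΔGS and 2.52 (standard error 0.66) with ΔADAM.

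TRIB3 (ENSG00000101255, chromosome 20 from 362835 to 397559, plus strand), a pseudokinase that binds ATF4 and AKT and dampens the response that induces it, had 40.5, 61.0 and 74.7 CPM in GFP and 195, 59.9 and 136 CPM with WT. With ΔGS it had 125, 98.9 and 277 CPM and with ΔADAM 153, 85.3 and 279.7 CPM. All 6 variant libraries lay above the GFP libraries, whereas WT of experiment 2 lay within their range. The log2 fold change was 1.15 (standard error 0.55) with WT, 1.48 (standard error 0.54) with ΔGS and 1.54 (standard error 0.54) with ΔADAM.

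CHAC1 (ENSG00000128965, chromosome 15 from 40952962 to 40956519, plus strand), an enzyme that breaks down glutathione, had the highest fitted fold change of the 9 in each TYRO3 group in the fit with the batch term, whereas with a term for each experiment STC2 exceeded it with WT and, by very little, with ΔADAM. Its levels were 3.68, 5.42 and 8.34 CPM in GFP and 44.6, 8.39 and 33.9 CPM with WT. They were 24.2, 24.9 and 98.5 CPM with ΔGS and 28.1, 18.9 and 107 CPM with ΔADAM. The groups did not overlap with GFP, but WT of experiment 2 exceeded the highest GFP library by very little, and the variant libraries of experiment 3 stood far above the other variant libraries. The log2 fold change was 2.39 (standard error 0.89), 3.0 (standard error 0.87) and 3.07 (standard error 0.87) with WT, ΔGS and ΔADAM. Counts of CHAC1 in the GFP library of experiment 1 were 14.0, which limits the precision of every ratio to that library.

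**Figure D1:**
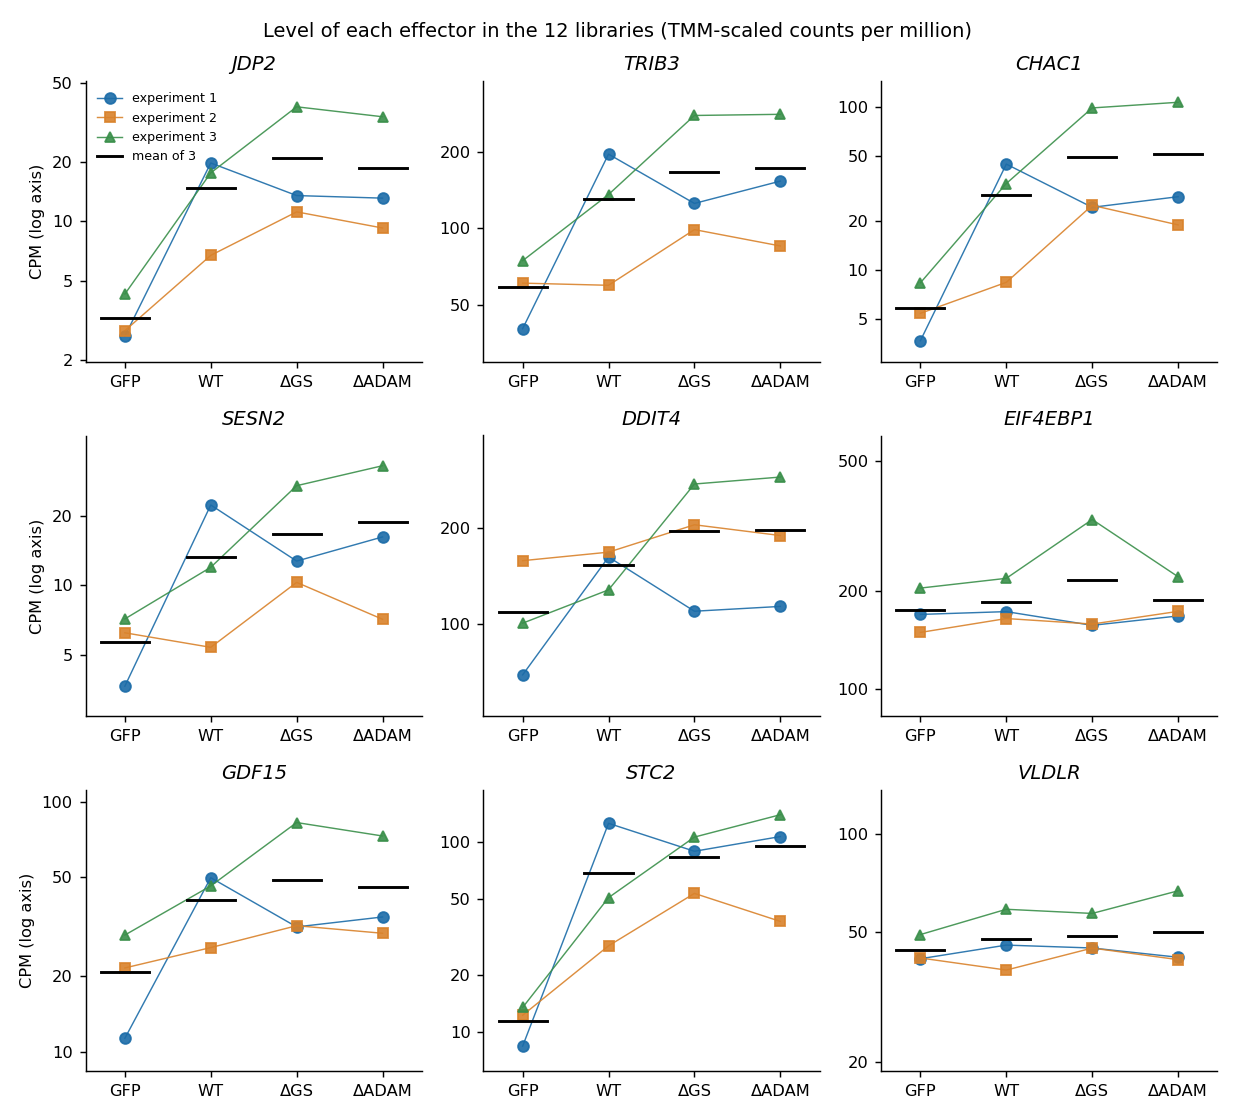
Level of each of the 9 effectors in CPM on a log axis for the GFP, WT, ΔGS and ΔADAM libraries, with a colour and marker for each experiment and a bar for the mean of 3 libraries. JDP2, CHAC1 and STC2 sat above GFP in all 9 TYRO3 libraries, EIF4EBP1 and VLDLR stayed nearly level, and WT was the highest group in experiment 1 and lay below both variants in experiments 2 and 3 for the 7 genes other than EIF4EBP1 and VLDLR.

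Among the brakes on growth and translation the size of the difference was graded. SESN2 (ENSG00000130766, chromosome 1 from 28259527 to 28282491, plus strand), a leucine-binding inhibitor of mTORC1, had 3.68, 6.25 and 7.17 CPM in GFP and 22.2, 5.41 and 11.98 CPM with WT. Its levels with ΔGS were 12.7, 10.3 and 26.9 CPM and with ΔADAM 16.2, 7.15 and 32.8 CPM. The ΔGS libraries lay above all GFP libraries, WT of experiment 2 lay below its own GFP library, and ΔADAM of experiment 2 lay just under the highest GFP library. DDIT4 (ENSG00000168209, chromosome 10 from 72273920 to 72276036, plus strand), a stress-induced protein that restrains mTORC1 through the TSC complex, had 69.4, 158 and 101 CPM in GFP and 163, 168 and 128 CPM with WT. It had 109.9, 205 and 275 CPM with ΔGS and 114, 189.8 and 289.5 CPM with ΔADAM. The GFP libraries of DDIT4 differed more than 2-fold among themselves, so that each TYRO3 group overlapped with GFP although each TYRO3 library lay above the GFP library of its own experiment.

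EIF4EBP1 (ENSG00000187840, chromosome 8 from 38030341 to 38060365, plus strand), which binds the cap-binding factor eIF4E and holds back translation, was nearly level. It had 169, 149 and 204 CPM in GFP, 173, 164 and 218 CPM with WT and 167, 173 and 221 CPM with ΔADAM. With ΔGS it had 157, 158 and 331 CPM, of which the library of experiment 3 stood apart. Without this library the log2 fold change with ΔGS went from 0.29 (standard error 0.25) to -0.12. EIF4EBP1 has a pseudogene elsewhere in the genome, EIF4EBP1P1, with which the estimated counts may be shared. For SESN2 the log2 fold change was 1.09 (standard error 0.65), 1.44 (standard error 0.63) and 1.61 (standard error 0.63) with WT, ΔGS and ΔADAM. For DDIT4 it was 0.58 (standard error 0.29), 0.82 (standard error 0.29) and 0.83 (standard error 0.29).

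Of the secreted effectors, STC2 (ENSG00000113739, chromosome 5 from 173314713 to 173329503, minus strand), a stanniocalcin glycoprotein, had 8.41, 12.2 and 13.4 CPM in GFP and 125, 28.4 and 50.9 CPM with WT. It had 89.3, 53.6 and 106 CPM with ΔGS and 107, 38.2 and 139 CPM with ΔADAM. No TYRO3 library overlapped with GFP, and the lowest was WT of experiment 2. The log2 fold change of STC2 was 2.31 (standard error 0.55) with WT, 2.72 (standard error 0.55) with ΔGS and 2.91 (standard error 0.55) with ΔADAM.

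GDF15 (ENSG00000130513, chromosome 19 from 18374731 to 18389176, plus strand), a circulating cytokine of the TGF-beta family, had 11.3, 21.6 and 29.3 CPM in GFP and 49.6, 26.1 and 46.0 CPM with WT. Its levels were 31.5, 31.9 and 82.5 CPM with ΔGS and 34.6, 29.7 and 72.9 CPM with ΔADAM. The variant libraries lay above all GFP libraries, the lowest ΔADAM library only just, and WT of experiment 2 lay within the GFP range. The log2 fold change of GDF15 was 1.01 (standard error 0.46), 1.19 (standard error 0.46) and 1.12 (standard error 0.46) with WT, ΔGS and ΔADAM. VLDLR (ENSG00000147852, chromosome 9 from 2621834 to 2660053, plus strand), a receptor that takes up triglyceride-rich lipoproteins, had 41.5, 41.7 and 49.3 CPM in GFP, 45.7, 38.3 and 58.9 CPM with WT, 44.8, 44.8 and 57.2 CPM with ΔGS and 42.0, 41.3 and 67.1 CPM with ΔADAM. All groups of VLDLR overlapped, the libraries of experiment 3 were the highest in each group, and the log2 fold changes lay between 0.12 (standard error 0.20) and 0.18 (standard error 0.20).

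The counts of effectors past the threshold are given for description, since these contrasts were known when the genes were chosen. The threshold was a change of more than 1.5-fold together with an adjusted p no higher than 0.05 in edgeR's quasi-likelihood test over all 15098 genes, in a model that sets experiment 1 apart from the other experiments. With WT, 0 of the 9 effectors were called, beside 0.0397% of all genes called higher and 0% lower. With ΔGS, 0 effectors were called, beside 0.278% of all genes higher and 0.179% lower, and with ΔADAM 1 effector, STC2, was called higher, beside 0.616% higher and 0.497% lower. At an unadjusted p under 0.05 there were 3, 7 and 7 effectors and 2300, 2895 and 3087 genes, with WT, ΔGS and ΔADAM. DESeq2 called 2, 3 and 4 effectors higher, beside 1.65%, 2.48% and 2.95% of the genes for which it gave an adjusted p. STC2 with ΔADAM was no longer called without any 1 of 8 libraries, namely the GFP libraries of experiments 1, 2 and 3, WT of experiment 2, ΔGS of experiments 1 and 2, and ΔADAM of experiments 1 and 3.

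Libraries of the same experiment varied together, and a block with a term for each experiment raised these counts. In the blocked fit STC2 and JDP2 were called higher with WT, beside 1.66% of all genes higher and 0.689% lower. With ΔGS the block gave 5 effectors, CHAC1, TRIB3, GDF15, STC2 and JDP2, beside 2.81% higher and 1.88% lower, and with ΔADAM it gave 4, CHAC1, TRIB3, STC2 and JDP2, beside 3.15% higher and 2.05% lower. The blocked log2 fold change of JDP2 with WT was 2.04 (standard error 0.36 in place of 0.67) and that of CHAC1 with ΔADAM was 2.64 (standard error 0.54 in place of 0.87). With any 1 of the 12 libraries removed from the blocked fit, between 0 and 4 effectors were called with WT (beside 0.502% to 2.26% of all genes higher), between 2 and 7 with ΔGS (beside 1.34% to 3.06%) and between 2 and 7 with ΔADAM (beside 1.07% to 3.42%). JDP2 and STC2 with ΔGS and with ΔADAM were called in all 12 of these fits. These fits reuse the libraries whose differences were known when the genes were chosen, so a call that stays is a description too. JDP2 with WT was lost without the GFP library of experiment 1 or 3, and STC2 with WT without those or without WT of experiment 1 or 2. CHAC1 was called in 9 of the 12 fits with each variant, being lost without the GFP library of experiment 1 or 3, without ΔGS of experiment 2 in the ΔGS contrast and without ΔADAM of experiment 3 in the ΔADAM contrast. TRIB3 and GDF15 with ΔGS were each called in 3 of the 12 fits, and TRIB3 with ΔADAM in 5.

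The median log2 fold change over the 9 effectors was 1.09 with WT, 1.44 with ΔGS and 1.54 with ΔADAM, beside medians of 0.00, 0.01 and 0.00 over all genes tested. All 9 fitted values were above 0 in each of the 3 comparisons, which share the GFP libraries. Of all 15098 genes, 7466, 7780 and 7504 were above 0 with WT, ΔGS and ΔADAM. Without WT of experiment 1 the median with WT was 0.58, without ΔGS of experiment 3 that with ΔGS was 0.80, and without ΔADAM of experiment 3 that with ΔADAM was 0.73. For single effectors, the removals that gave the lowest or highest value moved the fold change over GFP by more than 1.5 times on the linear scale in the following cases, given as log2 fold changes. Without WT of experiment 1, CHAC1 went to 1.61 and SESN2 to 0.44, and without WT of experiment 2 CHAC1 went to 3.04. Without ΔGS of experiment 3, CHAC1 went to 1.99, JDP2 to 1.87, TRIB3 to 0.84, SESN2 to 0.80 and GDF15 to 0.59. Without ΔADAM of experiment 3, STC2 went to 2.19, CHAC1 to 1.90, JDP2 to 1.72, TRIB3 to 0.92 and SESN2 to 0.73. All these values stayed above 0. CHAC1, STC2 and JDP2 had all 3 WT libraries above all 3 GFP libraries (3 of 9 effectors, beside 10.0% of all genes). This separation held for 6 of 9 effectors with ΔGS, beside 11.1% of all genes, and for 5 of 9 with ΔADAM, beside 12%. The share of all genes with every TYRO3 library above every GFP library was not counted.

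Compared with the GFP library of the same experiment, the size of the difference varied between the experiments. The median log2 ratio over the 9 effectors in experiments 1, 2 and 3 was 2.27, 0.14 and 0.74 with WT, 1.63, 0.70 and 1.89 with ΔGS and 1.92, 0.46 and 1.90 with ΔADAM, and experiment 2 had the lowest value in all 3 groups. The log2 ratios of CHAC1 were 3.60, 0.63 and 2.02 with WT, 2.72, 2.20 and 3.56 with ΔGS and 2.93, 1.80 and 3.68 with ΔADAM. Those of STC2 were 3.90, 1.21 and 1.92 with WT, 3.41, 2.13 and 2.98 with ΔGS and 3.67, 1.64 and 3.37 with ΔADAM. With WT, 6 of 9 effectors were higher than GFP in each of the 3 experiments (beside 24.1% of all genes), the exceptions being TRIB3, SESN2 and VLDLR, which were lower in experiment 2. With ΔGS the count was 8 of 9 (beside 23.7%), all but EIF4EBP1, and with ΔADAM it was 7 of 9 (beside 24.7%), all but EIF4EBP1 and VLDLR. The ratios of experiment 1 rest on the shallow GFP library, and its part in them was not tested.

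**Figure D2:**
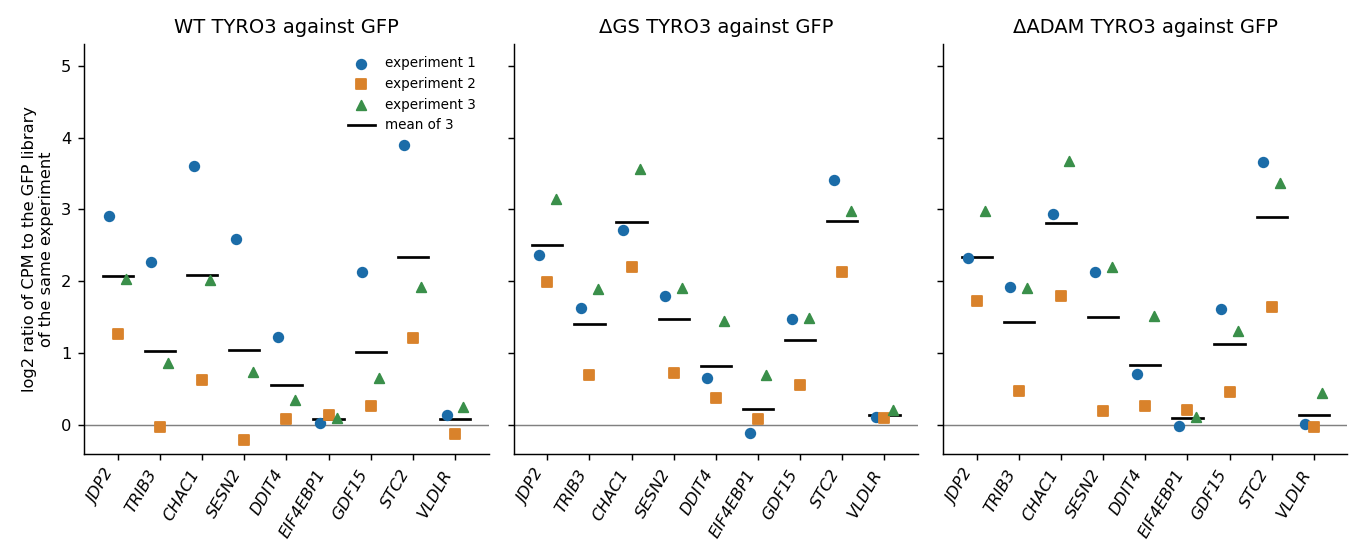
log2 ratio of the CPM of each effector to the GFP library of the same experiment, for WT, ΔGS and ΔADAM TYRO3, with a marker for each experiment and a bar for the mean of the 3 ratios. Experiment 2 gave the lowest ratio of most effectors, and the ratios of EIF4EBP1 and VLDLR lay between -0.12 and 0.45, apart from EIF4EBP1 with ΔGS in experiment 3 (0.70).

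WT TYRO3, which can release its intracellular domain, was compared with the mean of ΔGS and ΔADAM, which resist that release. The genes were chosen with results of these same TYRO3 libraries known. This contrast and that of ΔGS with ΔADAM below are therefore given as descriptions too. The fitted log2 difference was below 0 for all 9 effectors, from -0.65 for CHAC1 (standard error 0.70) to -0.05 for VLDLR (standard error 0.17), with a median of -0.36 and an adjusted p of 1 from edgeR for each. For STC2 it was -0.50 (standard error 0.44), for SESN2 -0.44 (standard error 0.53) and for TRIB3 -0.36 (standard error 0.47). The blocked values ran from -0.59 for CHAC1 (standard error 0.42) to -0.05 for VLDLR (standard error 0.09). Of all genes tested, 0% were called in this comparison and in its blocked fit, with 119 genes and 0 effectors at an unadjusted p under 0.05, and DESeq2 called 1 gene and 0 effectors. The median of the effectors went to 0.02 without WT of experiment 2 and to -0.90 without WT of experiment 1.

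The difference between WT and the variants went opposite ways in the experiments. The median log2 ratio of WT to the mean of both variants over the 9 effectors was 0.54, -0.60 and -1.04 in experiments 1, 2 and 3. In experiment 1 WT lay above both variants, and in experiments 2 and 3 below both, for JDP2, TRIB3, CHAC1, SESN2, DDIT4, GDF15 and STC2, that is 7 of 9 effectors, beside 7.55% of all genes. CHAC1 had ratios of 0.77, -1.37 and -1.60, TRIB3 of 0.50, -0.62 and -1.04 and DDIT4 of 0.54, -0.23 and -1.14. This pattern was looked for after the values were seen, and the effectors vary together, so they are not 9 separate observations of it. An interaction term for experiment 1 against experiments 2 and 3 was called for 0% of all genes and 0 effectors (adjusted p of 1.00 for each from edgeR), with 139 genes and 1 effector, DDIT4, at an unadjusted p under 0.05. For DDIT4 the interaction was 1.23 on the log2 scale (standard error 0.43).

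ΔGS and ΔADAM, which resist cleavage at different steps, did not differ in any effector by more than the spread between libraries. The fitted log2 difference of ΔGS from ΔADAM ran from -0.18 for STC2 (standard error 0.49) to 0.19 for EIF4EBP1 (standard error 0.25), with an adjusted p of 1 from edgeR for each. For CHAC1 it was -0.07 (standard error 0.74) and for GDF15 0.07 (standard error 0.43). The standard errors were 0.52 for TRIB3, 0.56 for JDP2 and 0.58 for SESN2. In CHAC1, GDF15, STC2, TRIB3, JDP2 and SESN2 these errors, from the fit with the batch term, leave room for differences of more than 1.5-fold either way. The blocked errors of these genes were smaller, at 0.44, 0.27, 0.36, 0.34, 0.29 and 0.40 in the same order. Here too 0% of all genes were called with or without the block, with 119 genes and 0 effectors at an unadjusted p under 0.05, and DESeq2 called 1 gene and 0 effectors. The median difference of the effectors within experiments was -0.13, 0.21 and -0.07.

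**Figure D3:**
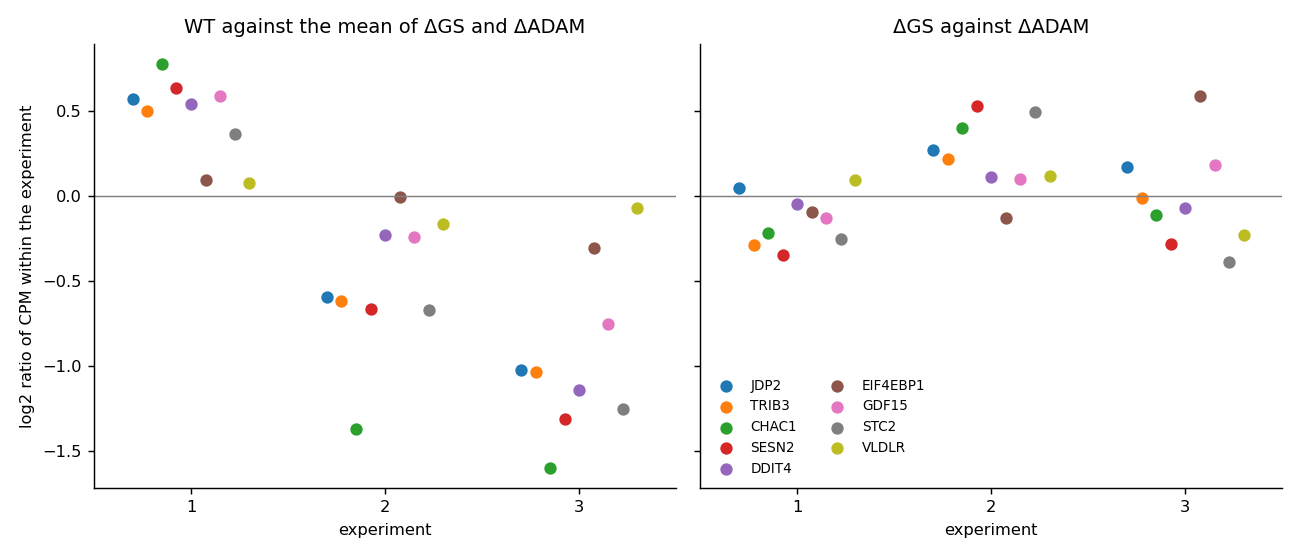
log2 ratios of CPM within each experiment for WT against the mean of ΔGS and ΔADAM (left) and for ΔGS against ΔADAM (right), with a point for each of the 9 effectors. On the left, the points lie above 0 in experiment 1 and below 0 in experiments 2 and 3, and on the right they scatter on both sides of 0.

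Upstream of the effectors, several transcription factors of the response passed the threshold with the variants, but only in the blocked fit. ATF4, the central activator, had 245, 211 and 282 CPM in GFP and 499, 254 and 453 CPM with WT. It had 389.6, 385 and 881 CPM with ΔGS and 431, 350.2 and 760.5 CPM with ΔADAM, and its lowest TYRO3 library was again WT of experiment 2. Its log2 fold change was 0.72 with WT, 1.15 with ΔGS and 1.06 with ΔADAM (adjusted p of 0.404, 0.14 and 0.151 from edgeR), and the blocked fit called it with ΔGS (adjusted p = 0.0166 from edgeR) and ΔADAM (adjusted p = 0.0199 from edgeR). Of 7 transcription factors of the response, 0 were called in any of the 3 comparisons with GFP. The blocked fit called 0 with WT, beside 1.66% of all genes called higher. It called 4 with ΔGS (ATF4, CEBPG, ATF3 and NUPR1), beside 2.81%, and 4 with ΔADAM (ATF4, CEBPG, ATF3 and CEBPB), beside 3.15%. The median log2 fold changes of the 7 were 0.72, 1.10 and 1.06 with WT, ΔGS and ΔADAM. DDIT3, which encodes CHOP and promotes cell death under lasting stress, had log2 fold changes of 0.48, 0.94 and 0.83 and was called in neither fit.

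The kinases that start the response, subunits of the phosphatase that ends it and EIF2S1, which encodes eIF2α itself, were also measured. Of the 7 genes of this list, 0 were called in the comparisons with GFP, with medians of 0.14, 0.07 and 0.11. The blocked fit called EIF2AK2, the kinase PKR that senses double-stranded RNA and is itself induced by interferon, higher in all 3 groups, by 0.87 with WT, 0.81 with ΔGS and 0.89 with ΔADAM on the log2 scale. It called EIF2AK3, the kinase PERK of the endoplasmic reticulum, lower with ΔGS (-0.62). In this fit 1.66%, 2.81% and 3.15% of all genes were called higher with WT, ΔGS and ΔADAM, and 1.88% lower with ΔGS. The activity of these kinases lies in protein phosphorylation, which RNA levels do not measure.

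Among 28 other targets of ATF4, which make and import amino acids and charge tRNAs, 26 had fitted values above 0 in each comparison with GFP. Of all 15098 genes, 7466, 7780 and 7504 did so with WT, ΔGS and ΔADAM. The medians of the 28 targets were 0.70 with WT, 0.89 with ΔGS and 0.82 with ΔADAM. With WT 0 were called, with ΔGS 1 (the tryptophanyl-tRNA synthetase WARS, log2 fold change 0.94) and with ΔADAM 3, namely WARS (1.00), the asparagine synthetase ASNS (1.67) and the cystine importer SLC7A11 (1.40). Of all genes tested, 0.0397%, 0.278% and 0.616% were called higher in the same comparisons. The blocked fit called 16, 19 and 20 of the 28 higher and 0 lower, beside 1.66%, 2.81% and 3.15% of all genes higher. Among the targets it called was PSAT1 of serine synthesis, with log2 fold changes of 1.15, 1.31 and 1.29. The ATF4 core letters were found in 4 of the 32 promoter windows of this list, which belong to the 21 genes that had an entry. This list, like the effectors, was drawn up with earlier results of these libraries known.

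**Figure D4:**
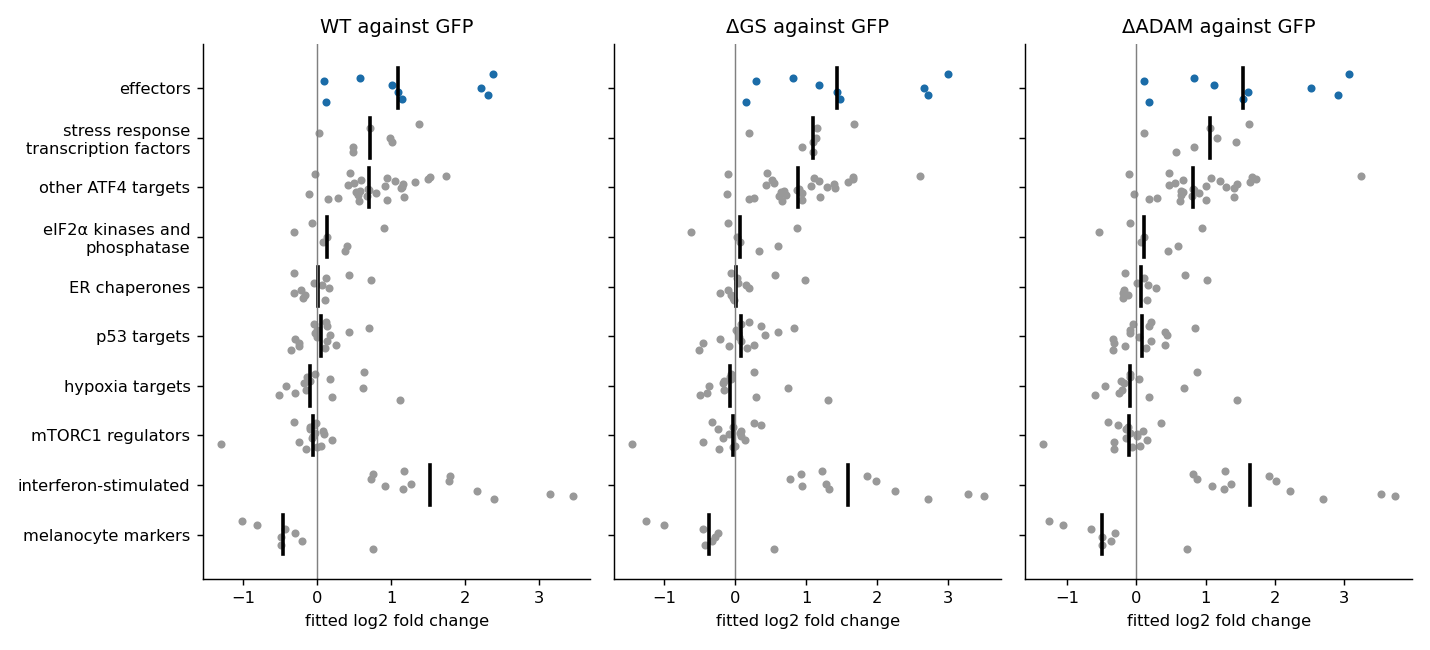
Fitted log2 fold change over GFP of every gene tested in 10 gene lists, in a panel each for WT, ΔGS and ΔADAM TYRO3, with a bar for the median of each list and the effectors in blue. The medians of the effectors (1.09, 1.44 and 1.54), of the response's transcription factors, of the other ATF4 targets and of the interferon-stimulated genes lie to the right of 0, those of the melanocyte markers to the left, and those of the remaining lists near 0.

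Interferon-stimulated genes also stood above GFP with each TYRO3 group in the blocked fit, and their highest libraries were those of experiment 2. All 12 genes of this list had fitted values above 0 in each comparison, with medians of 1.53, 1.59 and 1.64, and 0 were called. The blocked fit called 11, 12 and 11, beside 1.66%, 2.81% and 3.15% of all genes called higher. Values above 0 were found for 7466, 7780 and 7504 of all 15098 genes. The antiviral gene IFIT1 had 31.8, 69.3 and 37.8 CPM in GFP and 85.7, 305 and 106 CPM with WT. It had 115, 314 and 124 CPM with ΔGS and 99.5, 404 and 79.8 CPM with ΔADAM. The summed level of the 12 genes ranged from 323 to 640 CPM in GFP, 735 to 2029 CPM with WT, 846 to 1936 CPM with ΔGS and 597 to 2385 CPM with ΔADAM. The highest library of each group, GFP included, was that of experiment 2. The part of the interferon response, or of the transfected plasmid, in the level of the effectors was not tested.

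Most effectors varied together across the libraries. Each gene was centred within its experiment on the log2 scale, and its Pearson correlation over the 12 libraries with the mean of the standardized effectors was 0.990 for CHAC1, 0.984 for TRIB3, 0.973 for JDP2, 0.968 for SESN2, 0.967 for GDF15, 0.961 for DDIT4 and 0.957 for STC2. It was lower for VLDLR (0.722) and EIF4EBP1 (0.504). These libraries share 4 groups and 3 experiments, each effector is part of the mean, and the values are given as a description. Of the genes outside the lists, the most alike were XBP1 (0.993), which encodes a transcription factor of the unfolded protein response, POLG2 (0.991), G0S2 (0.991), FAM43A (0.989) and HOXB9 (0.984). The fitted log2 fold change of XBP1 was 0.76 with WT, 1.00 with ΔGS and 1.01 with ΔADAM, and that of G0S2, an inhibitor of lipolysis, was 2.06, 2.68 and 2.56. ATF4 had a correlation of 0.976 with the effectors, DDIT3 of 0.956, TYRO3 of 0.813 and IFIT1 of 0.704. VEGFA, listed here as a hypoxia target, had 0.982, which is above ATF4. Within the response, PSAT1 had 0.889, ASNS 0.881 and ATF3 0.876, all below CDKN1A, listed here as a target of p53. The chaperone gene HSPA5 was about level with IFIT1. High values were therefore not limited to genes listed with the response.

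**Figure D5:**
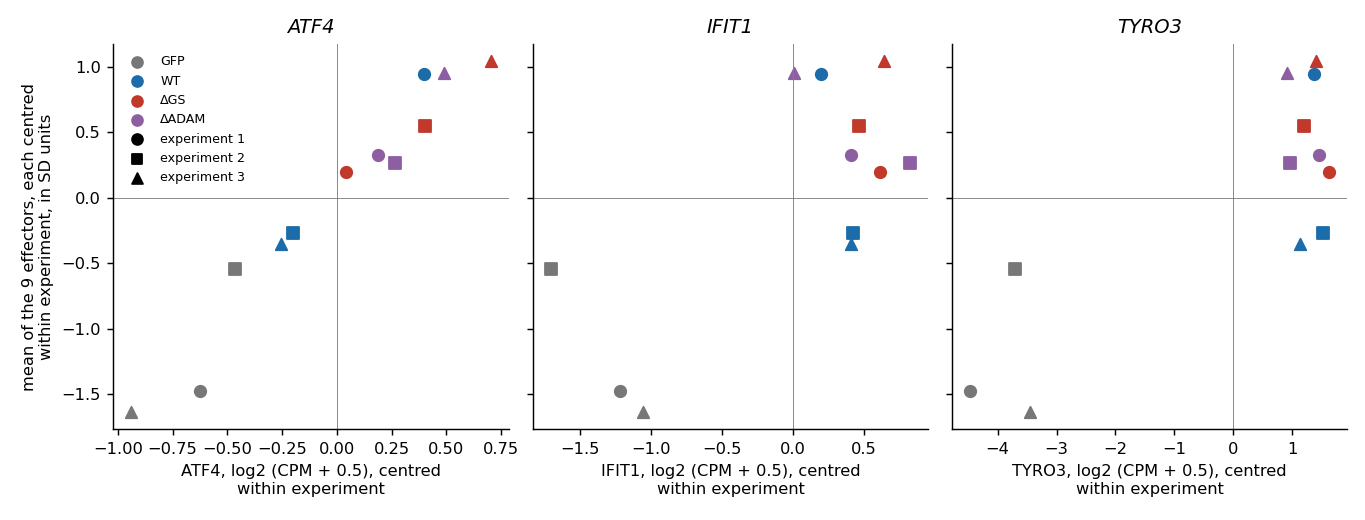
Mean of the 9 effectors, each centred within its experiment and divided by its SD, against ATF4, IFIT1 and TYRO3 on the log2 (CPM + 0.5) scale centred within experiment, with a point for each of the 12 libraries, a colour for each group and a marker for each experiment. The points follow a rising line for ATF4, whereas for IFIT1 and TYRO3 the GFP libraries lie apart on the left and the TYRO3 libraries form no line.

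Each effector was read mostly from 1 or 2 transcripts. SESN2 has 1 transcript in the files, and TRIB3-201, DDIT4-201, EIF4EBP1-201 and GDF15-201 each took at least 94.1% of the estimated counts of their gene in every library. STC2-201 took 90.1% on average, JDP2-201 took 70.8% and JDP2-202 18.7%, and VLDLR was shared between VLDLR-202 (61.5%) and VLDLR-203 (38.1%). CHAC1-204 took 92.1% of the CHAC1 counts on average but 59.2% in the shallow GFP library of experiment 1, where CHAC1-203 took 40.8%. For VLDLR, the ΔGS library of experiment 3 had the lowest share of VLDLR-202 (53.3%).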

How the data were processed

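Paired-end polyA RNA-seq reads of 12 libraries were quantified by the authors with kallisto 0.46.0 against Ensembl 96 (GRCh38), after trimming with PRINSEQ and Trimmomatic 0.33. The deposited values are estimated counts and TPM for 188753 transcripts in each library, without the batch correction that the study applied later. The strand setting of kallisto is not given in the sources used here. Of these, 169797 had a gene symbol in GENCODE 29, looked up by transcript identifier with the version removed (97.4% to 97.5% of the counts of each library, 18956 transcripts unmatched), and the estimated counts were summed over 35579 genes and rounded.

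Groups and experiments were taken from the sample labels. Genes were tested with edgeR 4.0.16 in R 4.3.3 (quasi-likelihood test, TMM, filterByExpr at its thresholds of 10 counts per library and 15 in total), in 1 model of all 12 libraries with the 4 groups and a batch term that, as in the study, set experiment 1 apart from the other experiments. Benjamini-Hochberg adjustment was over all 15098 genes within each of the 5 comparisons. CPM were scaled by TMM, and correlations used log2 (CPM + 0.5).

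The labels name a shared experiment, and deviations from the group means correlated in all 18 pairs of libraries of the same experiment (0.14 to 0.66, at most 0.033 between other experiments), so the experiments pair the libraries and a fit with a term for each experiment was added as a replicate block. The alternatives were RLE size factors, DESeq2 1.42.0, limma 3.58.1 on log2 TPM with a pseudocount of 1, no filter, a filter of 10 counts or more in each library, no batch term, the block, experiments 2 and 3 alone, no fold threshold, and removal of 1 library at a time. Removal of libraries from the blocked fit and the interaction were chosen after seeing the data. The scripts were tested on simulated counts. The effectors and gene lists were chosen with earlier results of these data known. Named were all 9 effectors, TYRO3, up to 2 genes per list and comparison by smallest p with 8 further genes (ATF4, DDIT3, ATF3, ASNS, PSAT1, CDKN1A, HSPA5 and VEGFA), several of them left out for length, and the 5 most alike genes. Other names were chosen after their values were seen. Promoter sequences came from RefSeq (GRCh38.p14), for 8 of the 9 effectors. Tables and figures used Python 3.11.15, numpy 2.4.6, pandas 2.3.3 and matplotlib 3.10.9.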

Additional observations from a re-analysis of the deposited data

How the results depend on the processing

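In WT, ΔGS and ΔADAM against GFP, 6, 69 and 168 genes and 0, 0 and 1 effectors were called. The replicate block gave 355, 708 and 784 genes and 2, 5 and 4 effectors, DESeq2 gave 376, 607 and 673 genes and 2, 3 and 4 effectors, and no filter on low counts gave 562, 765 and 879 genes and 5, 7 and 7 effectors. Without the batch term 3, 4 and 5 genes and 0 effectors each were called, limma on log2 TPM called 2, 1 and 43 genes, and experiments 2 and 3 alone called 1, 1 and 1 gene and 0 effectors each. At least 10 counts in every library gave 107 genes and 1 effector with ΔGS. The fits with no filter and with this filter did not test the same genes as the main fit. The genes they tested were not counted, so their effector counts have no share of all genes beside them. In WT against both variants, DESeq2 called 1 gene and no filter 6, and in ΔGS against ΔADAM they called 1 and 5, with 0 effectors in every fit. Why the counts move was not tested. The blocked median of the effectors was 0.90, 1.21 and 1.29 against GFP.

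With 1 library removed at a time, the genes called ranged from 1 to 20 with WT, 1 to 137 with ΔGS and 1 to 449 with ΔADAM, in each case lowest without the shallow GFP library of experiment 1, and from 0 to 0 in WT against both variants and 0 to 1 in ΔGS against ΔADAM. The effectors called ranged from 0 to 0, 0 to 1 and 0 to 3 against GFP, and were 0 to 0 in both other comparisons. The median of the effectors ranged from 0.58 to 1.57 with WT, 0.80 to 1.70 with ΔGS and 0.73 to 1.88 with ΔADAM, from -0.90 to 0.02 in WT against both variants and from -0.58 to 0.51 in ΔGS against ΔADAM. Outside the blocked fits with a library left out, 535 of 540 fitted values against GFP were above 0, and the 5 below 0, from -0.12 to -0.04, were of EIF4EBP1 and VLDLR with a library left out. In those blocked fits 2 of 324 values, of VLDLR with WT and EIF4EBP1 with ΔGS, were below 0, by less than 0.01. All these values come from refits of the same effectors in the same libraries and are not separate observations. The depth of the GFP library of experiment 1, with 9.59 estimated counts of JDP2 and 14.0 of SESN2 and of CHAC1, limits the ratios of experiment 1.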

Other observations

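Genes of neighbouring programs were measured in the same fits. With WT, ΔGS and ΔADAM, 0.0397%, 0.278% and 0.616% of all genes were called higher and 0%, 0.179% and 0.497% lower. In the blocked fit these shares were 1.66%, 2.81% and 3.15% higher and 0.689%, 1.88% and 2.05% lower. Of 12 chaperones and folding factors of the endoplasmic reticulum, 0 were called in any comparison with GFP, with medians of 0.02, 0.01 and 0.06 on the log2 scale. HSPA5, the chaperone BiP, had log2 fold changes of 0.07, 0.15 and 0.17, and the blocked fit called HERPUD1, a factor of protein degradation at this organelle, with ΔGS (0.89) and ΔADAM (0.91). Of 16 targets of p53, 0 were called and the blocked fit called FAS with ΔGS, with medians of 0.06, 0.08 and 0.09. CDKN1A, which arrests the cell cycle, had log2 fold changes of 0.70, 0.82 and 0.85 (adjusted p of 0.237, 0.122 and 0.101 from edgeR).

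Of 13 hypoxia targets tested, VEGFA, an angiogenic growth factor, was called higher with ΔADAM (1.45), and the medians of the list were -0.10, -0.07 and -0.09. The blocked fit called VEGFA and NDRG1 higher with ΔGS and with ΔADAM, and PFKFB4 lower with ΔADAM. Of 16 regulators of mTORC1 tested, SESN3, a relative of SESN2, was called lower with ΔGS (-1.46) and ΔADAM (-1.35), opposite to the direction of SESN2, and the blocked fit called it lower in all 3 groups. Of 8 melanocyte lineage genes, MITF, the master regulator of the lineage, was called lower with ΔADAM (-1.06), and the blocked fit called MITF and DCT lower with ΔGS and with ΔADAM. The medians of this list were -0.46, -0.38 and -0.50. In each comparison 1 of 8 genes was above 0, beside 7466, 7780 and 7504 of all 15098 genes. Among 3 fibroblast genes tested, the blocked fit called LUM, a matrix proteoglycan, lower in all 3 groups. The summed level of the 4 fibroblast markers ranged from 51.1 to 95.5 CPM over the 12 libraries, that of the 3 endothelial markers was at most 2.4 CPM, that of the 3 leukocyte markers at most 1.3 CPM and that of the 3 keratinocyte markers at most 0.4 CPM.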
